A study of Mus musculus with 10 samples.

Results

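The 10 genes described here encode enzymes, an enzyme partner and a receptor of prostaglandin and leukotriene synthesis: Pla2g4a, Pla2g2f, Ptgs1, Ptgs2, Ptges, Alox5, Alox5ap, Alox12, Alox15 and Ltb4r1. They were chosen by symbol from 20611 listed genes, all 10 are listed, and all 10 were among the 14861 genes with enough counts to be tested. Gene expression was measured by polyA-selected mRNA sequencing in whole mouse skin, with 1 library per mouse. The Klk6+ group (5 mice, 3 males as replicates 1 to 3 and 2 females as replicates 4 and 5) carried both Tetos-Klk6, a Myc/His-tagged mouse Klk6 transgene, and K5-tTA, a tetracycline transactivator. The transactivator is driven by the bovine keratin 5 promoter in epidermal keratinocytes and some other stratified epithelia, and is active without doxycycline. The WT group (5 mice, replicates 1 to 3 males and 4 and 5 females, with numbers that only name the mice and pair none) held littermates that were wild type or carried only 1 of the transgenes, without expressing it; the labels do not say which a given mouse was. Both lines had been backcrossed to C57BL/6. Matings were kept on doxycycline to obtain living Klk6+ offspring. Per the labels' protocols doxycycline chow was reintroduced for Klk6+ mice when they were 10 to 11 weeks old, and tissues were taken at 14 to 16 weeks. Doxycycline silences the transgene, and it is unclear from the labels if these libraries predate its return; Klk6 was high in every Klk6+ library.

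Eicosanoids are short-lived lipid mediators made from arachidonic acid. Phospholipases A2 free the fatty acid from membranes, cyclooxygenases turn it into prostaglandin H2, and terminal synthases such as that of Ptges turn this into prostaglandin E2, which dilates vessels and carries pain and fever. Lipoxygenases make leukotrienes and hydroxy fatty acids instead. Leukotriene B4, made through Alox5 and its partner protein Alox5ap, attracts neutrophils through the receptor encoded by Ltb4r1, and in the epidermis a separate set of lipoxygenases serves the permeability barrier.

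Total counts ranged from 26521019 to 39796511 in Klk6+ and from 32798416 to 41970272 in WT. A single count equalled 0.0230 to 0.0373 CPM (counts after scaling all libraries to 1 size). Klk6 itself stood at 12603 ± 1944 CPM in Klk6+ and 18.2 ± 5.17 CPM in WT (mean ± SD, n = 5 each) and was high in every Klk6+ and low in every WT library. The genotypes differed in 72.8% of all genes tested, so a changed gene is the usual case in these skins. On the second principal component Klk6+ replicates 3 and 5 stood apart from the other Klk6+ libraries. Keratinocyte markers summed to 18727 to 28107 CPM in Klk6+ and 4699 to 13802 CPM in WT, fibroblast markers to 2647 to 5061 CPM in Klk6+ and 6861 to 29205 CPM in WT, and skeletal muscle markers to 2339 to 4509 CPM in Klk6+ and 33077 to 52044 CPM in WT. Because whole skin was sequenced, fewer cells of a type and less RNA per cell cannot be told apart for any gene below.

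The promoters of the cyclooxygenase genes and of Ptges are shown because these 3 genes carry the main contrast, in which Ptgs2 and Ptges were higher and Ptgs1 lower in Klk6+ skin. Each is the RefSeq window of 250 bases before to 50 bases after the annotated start, printed 5′ to 3′ on the strand of the gene, with capitals for matches on either strand to TTNNGNAA (a C/EBP-like motif) or GGGCGG (a GC box).
Ptgs2 (GRCm38.p6, chr1:150099781-150100080, plus strand): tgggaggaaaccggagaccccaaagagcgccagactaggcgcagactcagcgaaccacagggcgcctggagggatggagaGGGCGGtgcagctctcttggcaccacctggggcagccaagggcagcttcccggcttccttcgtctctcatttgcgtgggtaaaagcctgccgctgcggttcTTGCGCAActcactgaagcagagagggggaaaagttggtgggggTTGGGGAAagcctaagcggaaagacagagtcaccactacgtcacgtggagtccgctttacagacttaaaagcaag
Ptges (GRCm38.p6, chr2:30903248-30903547, minus strand): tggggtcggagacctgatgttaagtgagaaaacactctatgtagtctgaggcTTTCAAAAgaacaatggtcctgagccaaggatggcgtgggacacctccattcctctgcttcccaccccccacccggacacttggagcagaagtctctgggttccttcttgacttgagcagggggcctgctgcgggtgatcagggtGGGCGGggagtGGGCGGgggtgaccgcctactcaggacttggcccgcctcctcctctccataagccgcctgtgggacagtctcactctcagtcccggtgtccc
Ptgs1 (GRCm38.p6, chr2:36230176-36230475, plus strand): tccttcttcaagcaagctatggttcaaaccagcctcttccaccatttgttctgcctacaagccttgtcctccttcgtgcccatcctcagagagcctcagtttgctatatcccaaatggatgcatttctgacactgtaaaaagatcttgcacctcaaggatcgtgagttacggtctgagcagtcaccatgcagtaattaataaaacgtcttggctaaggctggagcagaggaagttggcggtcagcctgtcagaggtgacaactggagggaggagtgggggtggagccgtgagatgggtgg
The Ptgs2 window held 2 matches to TTNNGNAA and 1 GC box, and the Ptges window held 1 match to TTNNGNAA and 2 GC boxes. The Ptgs1 window held neither. Of the 32851 RefSeq promoter windows of this length, 40.7% hold TTNNGNAA and 35.7% hold GGGCGG, so both are common. TATAAA (the TATA box), the AP-1 motif TGANTCA, an NF-kB motif and TGACGTCA (the cAMP response element), which 13.6%, 7.81%, 4.79% and 1.79% of all windows hold, had no match in these 3 windows. GC content was 59.3% in the Ptgs2 window, 60.0% in that of Ptges and 50.7% in that of Ptgs1. Windows were found for 8 of the 10 genes, and none is shown for Alox5ap or Alox15. Of these 8 genes 5 held TTNNGNAA and 5 held GGGCGG, and both motifs also occurred in genes that fell. Alox12 held both, a Pla2g4a window held TTNNGNAA and the Alox5 window GGGCGG, and all of these genes fell. Of the other genes that rose, Pla2g2f held TTNNGNAA and Ltb4r1 GGGCGG. A match describes letters only.

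Of the 10 genes, 4 rose and 5 fell in Klk6+ skin by edgeR's quasi-likelihood test with sex as a covariate (adjusted p below 0.05). Among all genes tested 37.7% were called higher and 35.1% lower. The genes that rose were Ptgs2, Ptges, Ltb4r1 and Pla2g2f; those that fell were Alox12, Alox15, Alox5, Ptgs1 and Pla2g4a; Alox5ap was not called. The median log2 fold change over the 10 genes was -0.64, beside 0.04 over all genes tested. The genotypes did not overlap in CPM for 8 of the 10, 4 higher and 4 lower, where 57.0% of all genes tested did not overlap (30.1% higher, 27.0% lower). In all, 90.0% of the 10 genes were called, beside the 72.8% of all genes.

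**Figure D1:**
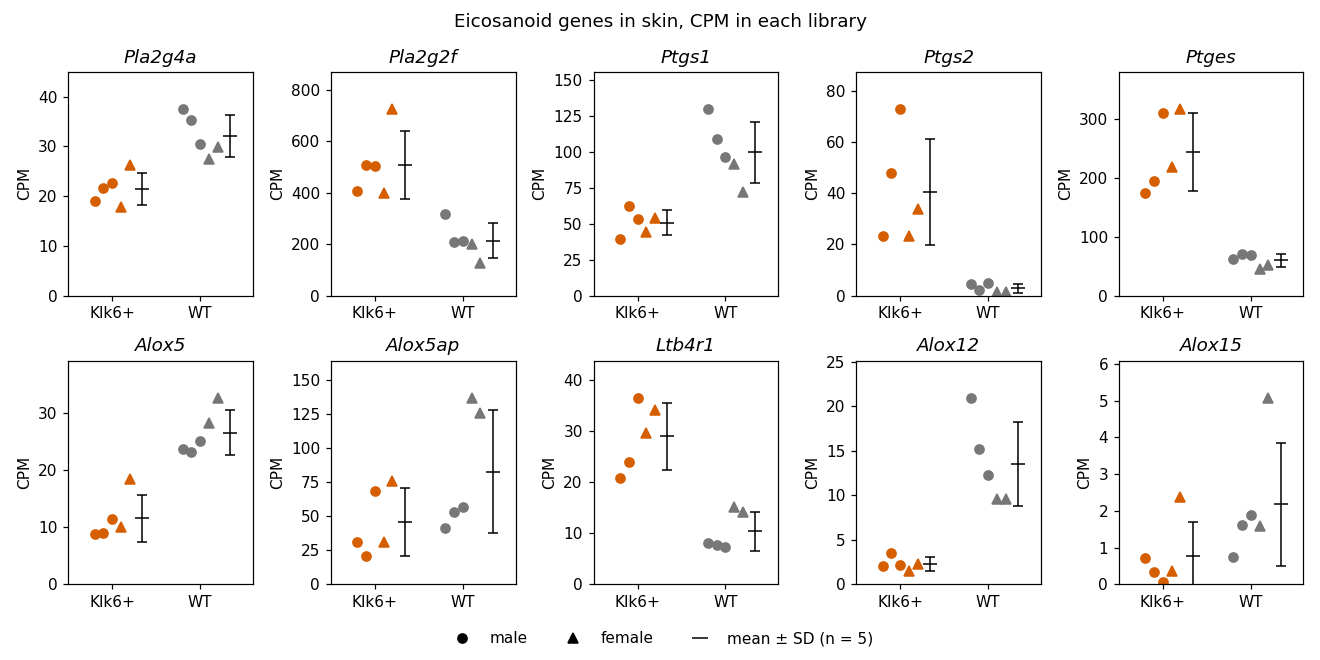
CPM of each of the 10 genes in each library (y axis, from 0; circles males, triangles females), Klk6+ left and WT right, with the mean ± SD over 5 mice beside the points; error bars that would pass below 0 are clipped there. Ptgs2 stood at 23.5 to 72.9 CPM in Klk6+ and 1.37 to 4.84 CPM in WT, and the groups overlap only for Alox5ap and Alox15.

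The transcripts of the pair of phospholipase A2 genes moved in opposite directions. Pla2g4a (chr1:149829618-149961290, minus strand, GRCm38) encodes the calcium-dependent cytosolic enzyme that supplies most arachidonate for eicosanoids. It stood at 19.0, 21.6, 22.6, 17.8 and 26.3 CPM in Klk6+ replicates 1 to 5, against 37.5, 35.3, 30.5, 27.4 and 30.0 CPM in WT replicates 1 to 5. All Klk6+ libraries lay below all WT libraries, with Klk6+ 5 the nearest. Pla2g4a fell by 0.58 ± 0.13 on the log2 scale (SE; adjusted p = 0.00201). Pla2g2f (chr4:138750533-138757626, minus strand) encodes a secreted phospholipase A2 known from suprabasal mouse epidermis. It stood at 407, 509, 502, 399 and 724 CPM in Klk6+ replicates 1 to 5, against 318, 209.8, 214, 200.1 and 128 CPM in WT replicates 1 to 5. Every Klk6+ library lay above every WT library, the nearest pair being Klk6+ 4 and WT 1. Pla2g2f rose by 1.27 ± 0.24 (adjusted p = 0.000830), and by 0.98 without Klk6+ 5. Keratinocyte markers rose in the same libraries (4 of 6 called higher, 1 lower), and their part in this was not tested.

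The ratio of Pla2g2f to Pla2g4a, in FPKM (per transcript length, with 0.1 added to each), was 25.0, 27.5, 26.0, 26.1 and 32.3 in Klk6+ replicates 1 to 5, against 9.98, 7.01, 8.25, 8.59 and 5.05 in WT replicates 1 to 5. The Klk6+ ratios kept within a narrow band from 25.0 to 32.3, and none came near the WT values. The ratio was 3.60-fold higher in Klk6+ (p = 0.00794 by a two-sided exact permutation test, 0.0159 adjusted over the 4 ratios tested). With 5 libraries a genotype this test can give no smaller value. Every Klk6+ library lay above WT for Pla2g2f and below WT for Pla2g4a, so the test had to give this p-value. It adds no support beyond that of the single genes.

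The cyclooxygenase genes also parted. Ptgs1 (chr2:36230426-36252272, plus strand) encodes the constitutive cyclooxygenase, and stood at 39.6, 62.4, 53.7, 44.5 and 54.3 CPM in Klk6+ replicates 1 to 5, against 130.0, 109, 96.4, 92.0 and 71.9 CPM in WT replicates 1 to 5. Every Klk6+ library lay below every WT library. Ptgs1 fell by 0.96 ± 0.15 (adjusted p = 0.000262). Ptgs2 (chr1:150100031-150108227, plus strand) encodes the inducible cyclooxygenase, the target of selective anti-inflammatory drugs. It stood at 23.5, 47.9, 72.9, 23.5 and 34.1 CPM in Klk6+ replicates 1 to 5, against 4.36, 2.38, 4.84, 1.38 and 1.37 CPM in WT replicates 1 to 5. Klk6+ 3 was the highest, Klk6+ 1 and 4 the lowest of their group, and all were far above WT. Ptgs2 rose by 3.91 ± 0.35 (adjusted p = 4.89e-06), the largest change among the 10 genes. Summed over the 5 libraries it had 6647 counts in Klk6+ and 544 in WT.

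Ptgs1 remained the more abundant cyclooxygenase transcript per length in all 10 libraries, at 16.5 ± 2.57 FPKM in Klk6+ and 32.2 ± 7.12 FPKM in WT, beside 8.77 ± 4.30 FPKM in Klk6+ and 0.626 ± 0.364 FPKM in WT for Ptgs2. The ratio of Ptgs2 to Ptgs1 was 0.406, 0.520, 0.918, 0.360 and 0.427 in Klk6+ replicates 1 to 5, against 0.0250, 0.0177, 0.0373, 0.0134 and 0.0171 in WT replicates 1 to 5. In Klk6+ 3 the 2 transcripts were close to equal. The ratio was 24.0-fold higher in Klk6+ (p = 0.00794 by the same exact permutation test, 0.0159 adjusted over 4 ratios). Every Klk6+ library lay above WT for Ptgs2 and below WT for Ptgs1, so the test had to give this p-value. It adds no support beyond that of the single genes. The sum of both genes was 25.2 ± 6.06 FPKM in Klk6+ and 32.8 ± 7.36 FPKM in WT, with overlapping ranges (18.0 to 32.6 in Klk6+ and 23.5 to 43.8 in WT). Ptgs2 and Pla2g4a lie next to each other on chromosome 1, 138740 bases apart with no annotated protein-coding gene between them, and moved in opposite directions.

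**Figure D2:**
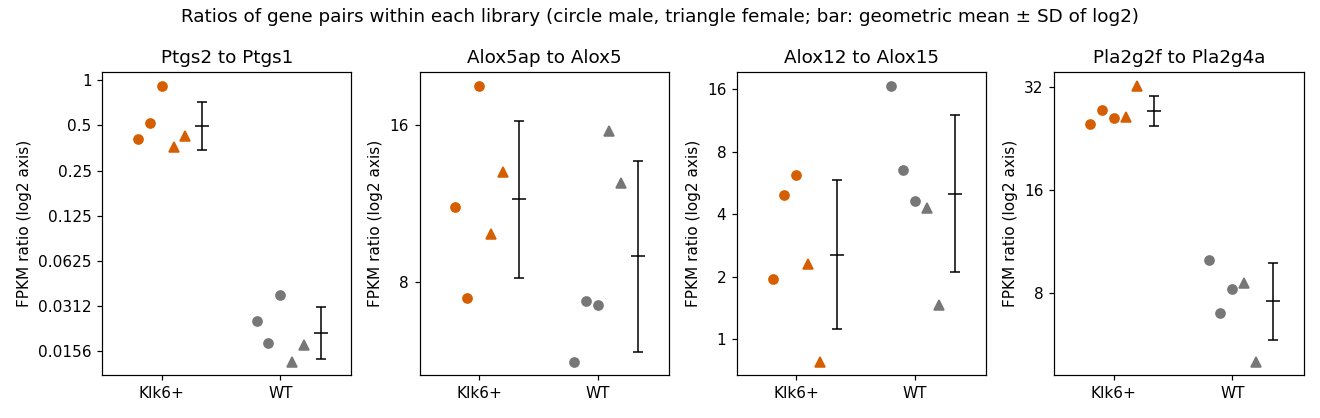
FPKM ratios of 4 gene pairs within each library (y axis, log2 scale; circles males, triangles females), with the geometric mean and the SD of the log2 ratio. The Ptgs2 to Ptgs1 ratio spanned 0.360 to 0.918 in Klk6+ and 0.0134 to 0.0373 in WT, while the ratios of Alox5ap to Alox5 and of Alox12 to Alox15 overlapped between genotypes.

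Ptges (chr2:30889471-30929863, minus strand) encodes microsomal prostaglandin E synthase 1, the inducible enzyme that works with the product of Ptgs2. It stood at 175, 196, 311, 219.8 and 318 CPM in Klk6+ replicates 1 to 5, against 62.6, 70.9, 69.9, 44.8 and 52.0 CPM in WT replicates 1 to 5. Each Klk6+ library was above each WT library, and Klk6+ 3 and 5 were the highest. Ptges rose by 2.04 ± 0.21 (adjusted p = 1.18e-05), and by 1.66 with Klk6+ 3 and 5 both left out, an alternative chosen after the data were seen. Per length it was the second most abundant of the 10 transcripts in Klk6+ (61.2 ± 17.0 FPKM in Klk6+ and 14.9 ± 2.63 FPKM in WT).

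Of 14 genes on a list of other prostanoid synthases and breakdown steps, all were tested. Of these 6 rose and 6 fell, near the 37.7% higher and 35.1% lower of all genes tested, with a median log2 fold change of -0.32. The other prostaglandin E synthase genes rose as well, Ptges3 (also a cochaperone of Hsp90) by 1.15 ± 0.09 (adjusted p = 1.77e-06) and Ptges2 by 0.42 ± 0.09 (adjusted p = 0.00151). Cbr1, a carbonyl reductase that acts on prostaglandin E2, rose by 1.36 ± 0.20 (adjusted p = 0.000167). The largest falls were those of Ptgis, the prostacyclin synthase gene, at 1.24 ± 0.939 CPM in Klk6+ and 18.9 ± 6.12 CPM in WT (log2 fold change -4.00 ± 0.46, adjusted p = 2.56e-05), and of Tbxas1, the thromboxane synthase gene, at 2.06 ± 1.10 CPM in Klk6+ and 21.1 ± 15.7 CPM in WT (log2 fold change -3.11 ± 0.41, adjusted p = 7.24e-05). Ptgr2, a reductase that inactivates prostaglandins, fell by 0.79 ± 0.08 (adjusted p = 7.46e-06); 32.0% of its exon sequence is shared with a noncoding transcript on the opposite strand, which unstranded reads cannot separate. Hpgd, whose product begins the breakdown of prostaglandin E2, was named after its value was seen and fell by 0.42 ± 0.17 (adjusted p = 0.0475), with overlapping groups. This call was close to the threshold. By the edgeR model of each sex, Hpgd was not called in males (-0.20 ± 0.20, adjusted p = 0.401) and was called in females (-0.75 ± 0.24, adjusted p = 0.0256). Macrophage markers, a cell type in which Tbxas1 is high, also fell in these libraries (244 to 955 CPM in Klk6+ and 824 to 3636 CPM in WT, 6 of 6 called lower). Endothelial markers, from cells that make prostacyclin, summed to 116 to 159 CPM in Klk6+ and 203 to 269 CPM in WT, with 3 of 3 called lower; the part of these cells was not tested.

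Prostanoid receptor genes rose in no case: of 9 on the list 8 were tested and 6 fell, where 35.1% of all genes tested fell. The median was -1.06, beside 0.04 over all genes tested. Markers of macrophages (6 of 6), fibroblasts (4 of 4) and endothelium (3 of 3) were called lower in the same libraries, and their part was not tested. Ptger3, which encodes prostaglandin E2 receptor EP3, stood at 6.19 ± 1.25 CPM in Klk6+ and 31.5 ± 14.6 CPM in WT and fell by 2.22 ± 0.30 (adjusted p = 7.27e-05). Ptgfr, the prostaglandin F receptor gene, fell by 0.88 ± 0.11 (adjusted p = 5.96e-05). Ptger1, the EP1 gene, had a log2 fold change of -1.38 ± 0.18 (adjusted p = 7.06e-05), but its counts are uncertain because the libraries do not keep strand. Ptger4, Ptgdr and Ptger2 fell as well and were picked for mention with their values known, the last 2 at low levels (0.384 CPM in Klk6+ and 1.38 CPM in WT for Ptgdr, 0.965 CPM in Klk6+ and 2.42 CPM in WT for Ptger2). Ptgir (-0.39 ± 0.36, adjusted p = 0.342) and Tbxa2r (-0.68 ± 0.35, adjusted p = 0.104) were not called, and Ptgdr2 was too low to test.

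In the leukotriene branch Alox5 fell and Ltb4r1 rose, while Alox5ap was not called. Alox5 (chr6:116410077-116461178, minus strand), the 5-lipoxygenase gene, stood at 8.81, 8.95, 11.4, 10.0 and 18.5 CPM in Klk6+ replicates 1 to 5, against 23.7, 23.2, 25.1, 28.2 and 32.6 CPM in WT replicates 1 to 5. Klk6+ 5 was the highest of its group and all Klk6+ libraries lay below WT. Alox5 fell by 1.22 ± 0.16 (adjusted p = 7.16e-05). Alox5ap (chr5:149264767-149288153, plus strand) encodes the membrane protein that presents arachidonate to 5-lipoxygenase. It stood at 31.3, 21.1, 68.7, 31.3 and 75.7 CPM in Klk6+ replicates 1 to 5, against 41.5, 53.1, 56.5, 137 and 126 CPM in WT replicates 1 to 5. WT females were above all others, Klk6+ 3 and 5 lay above the WT males, and the groups overlapped. Its log2 fold change was -0.71 ± 0.36 and did not pass the test (adjusted p = 0.0962). Without Klk6+ 3 it did (-1.12, adjusted p = 0.00379).

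The ratio of Alox5ap to Alox5 was 11.1, 7.44, 19.0, 9.88 and 13.0 in Klk6+ replicates 1 to 5, against 5.62, 7.33, 7.22, 15.5 and 12.4 in WT replicates 1 to 5. These values overlapped, and the difference in mean log2 ratio, 0.36, did not pass (two-sided exact permutation p = 0.325; 0.325 adjusted over 4 ratios). Both genes are expressed in macrophages and neutrophils, whose markers moved in opposite directions. Macrophage markers summed to 244, 314, 539, 412 and 955 CPM in Klk6+ replicates 1 to 5, against 824, 1021, 1432, 3035 and 3636 CPM in WT replicates 1 to 5. Neutrophil markers, of which all 6 analysed rose (Ly6g was not analysed here), summed to 120.4, 73.4, 427, 120.1 and 344 CPM in Klk6+ replicates 1 to 5, against 5.67, 20.0, 7.51, 15.5 and 22.1 CPM in WT replicates 1 to 5. Klk6+ 3 and 5, the highest in Alox5ap among Klk6+ libraries, were also the highest in both marker sums, and the WT females were the highest of WT in macrophage markers; the part of these cells was not tested.

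Ltb4r1 (chr14:55765962-55768494, plus strand) encodes BLT1, the high-affinity leukotriene B4 receptor. It stood at 20.9, 24.1, 36.5, 29.6 and 34.1 CPM in Klk6+ replicates 1 to 5, against 8.04, 7.65, 7.24, 15.1 and 14.1 CPM in WT replicates 1 to 5. All Klk6+ libraries were above all WT libraries, and the WT females were above the WT males. Ltb4r1 rose by 1.55 ± 0.19 (adjusted p = 3.44e-05). Its neighbour Ltb4r2 (chr14:55761428-55765138, plus strand), which encodes the low-affinity receptor BLT2 known from keratinocytes, stood at 14.3 ± 3.33 CPM in Klk6+ and 3.38 ± 1.56 CPM in WT and rose by 2.14 ± 0.32 (adjusted p = 0.000161). The exons of these receptor genes do not overlap in the annotation used. Neutrophils carry BLT1, and their markers rose in the same libraries as given above, with their part not tested.

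Of 15 further genes of leukotriene and lipoxin synthesis and response 13 were tested, 6 rose and 6 fell, with a median of -0.38. Among all genes tested 37.7% rose and 35.1% fell, with a median of 0.04. Mgst2, one of the enzymes able to form leukotriene C4, stood at 22.8 ± 10.4 CPM in Klk6+ and 2.51 ± 0.356 CPM in WT and rose by 3.17 ± 0.29 (adjusted p = 5.40e-06). In contrast Ltc4s, the dedicated leukotriene C4 synthase gene, stood at 2.19 ± 0.588 CPM in Klk6+ and 10.1 ± 4.45 CPM in WT and fell by 2.12 ± 0.23 (adjusted p = 1.75e-05); 26.4% of its exon sequence is shared with an antisense transcript. Mast cells, which make cysteinyl leukotrienes, had markers summing to 244 to 499 CPM in Klk6+ and 177 to 280.3 CPM in WT, with 6 of 7 called higher; their part was not tested. Cysltr1, a receptor gene for cysteinyl leukotrienes, fell by 2.05 ± 0.20 (adjusted p = 7.61e-06), and Dpep1, a dipeptidase that converts leukotriene D4, fell by 1.57 ± 0.21 (adjusted p = 6.90e-05). Mgst3, per length the most abundant of the list and a related glutathione-dependent enzyme, stood at 44.4 ± 6.94 CPM in Klk6+ and 70.0 ± 3.41 CPM in WT and fell by 0.66 ± 0.11 (adjusted p = 0.000277). Lta4h, whose product forms leukotriene B4, was named after its value was seen and rose by 0.46 ± 0.09 (adjusted p = 0.000678). The formyl peptide receptor gene Fpr1, a neutrophil gene, had 1503 counts over the Klk6+ libraries and 38 over the WT libraries and rose by 5.44 ± 0.76 (adjusted p = 0.000105), and by 4.76 without Klk6+ 3.

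Alox12 (chr11:70241457-70255353, minus strand) encodes the platelet-type 12-lipoxygenase, which is also made in basal keratinocytes. It stood at 2.07, 3.52, 2.16, 1.45 and 2.27 CPM in Klk6+ replicates 1 to 5, against 20.9, 15.2, 12.3, 9.63 and 9.53 CPM in WT replicates 1 to 5. The highest Klk6+ library, Klk6+ 2, was below the lowest WT library. Alox12 fell by 2.54 ± 0.23 (adjusted p = 4.82e-06). Platelet markers summed to 20.4 to 50.8 CPM in Klk6+ and 41.1 to 112 CPM in WT. Of these 1 was called higher and 2 lower of 4 tested, and the defining marker Gp9 was below 0.5 CPM in every library. Keratinocyte markers went the other way, at 18727 to 28107 CPM in Klk6+ and 4699 to 13802 CPM in WT. Among 6 of them 4 were called higher and 1 lower. The part of either cell type was not tested.

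Alox15 (chr11:70344152-70352031, minus strand) encodes the leukocyte-type lipoxygenase that in the mouse forms mainly 12-hydroxy products and is found in resident macrophages and eosinophils. It had 25, 10, 2, 12 and 64 counts in Klk6+ replicates 1 to 5, against 33, 67, 63, 54 and 170 counts in WT replicates 1 to 5. In CPM this was 0.708, 0.348, 0.0526, 0.370 and 2.38 in Klk6+ and 0.758, 1.61, 1.88, 1.58 and 5.08 in WT. Klk6+ 5 and WT 5, both females, stood well above the rest of their groups, and Klk6+ 5 lay above 4 of the 5 WT libraries. Alox15 fell by 1.64 ± 0.64 (adjusted p = 0.0403), a call that was lost when any one of WT 2, 3 or 5 or Klk6+ 2, 3 or 4 was left out (adjusted p up to 0.119, without WT 5) and with genotype alone. The fall was 2.36 without Klk6+ 5 and 1.35 without Klk6+ 3. Eosinophil markers summed to 0.397 to 0.633 CPM in Klk6+ and 0.781 to 7.08 CPM in WT, with 2 of the 2 tested called lower and the defining genes Epx and Prg2 below 0.5 CPM in every library. The macrophage marker sums given above were likewise highest in Klk6+ 5 and WT 5 of their groups, and the part of these cells was not tested. The ratio of Alox12 to Alox15 overlapped between genotypes (0.779 to 6.20 in Klk6+ and 1.46 to 16.7 in WT; two-sided exact permutation p = 0.270, adjusted 0.325).

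Of the 4 other lipoxygenase genes 2 rose and 1 fell, with a median of 1.30, where 37.7% of all genes tested rose and 35.1% fell. Alox8, the 8-lipoxygenase gene known to be inducible in mouse skin, stood at 359 ± 143 CPM in Klk6+ and 2.72 ± 0.368 CPM in WT and rose by 7.04 ± 0.32 (adjusted p = 1.89e-07). Alox12b, whose product makes the barrier lipids of the cornified layer, stood at 176 ± 48.1 CPM in Klk6+ and 40.4 ± 18.4 CPM in WT, 4.58-fold higher in Klk6+ (SE 0.29 on the log2 scale, adjusted p = 7.27e-05). Alox12e, the epidermal-type 12-lipoxygenase gene of the mouse, stood at 19.7 ± 14.1 CPM in Klk6+ and 171 ± 39.7 CPM in WT and fell by 3.17 ± 0.38 (adjusted p = 3.53e-05). Aloxe3, the partner of Alox12b in barrier lipid synthesis, had a log2 fold change of 0.41 ± 0.27 (adjusted p = 0.196) and was not called. All but Alox5 lie on chromosome 11 in 2 groups. Aloxe3, Alox12b and Alox8 lie between 69125896 and 69197843, and in this group 2 genes rose and none fell. Alox12, Alox12e and Alox15 lie between 70241457 and 70352031 (GRCm38), and all 3 fell.

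The makeup of the lipoxygenase transcripts differed, as shares of the summed FPKM of the 7 genes (SD, n = 5 each). Alox8 made up 51.1% ± 11.9 in Klk6+ and 0.745% ± 0.232 in WT, and Alox12e 4.39% ± 3.73 in Klk6+ and 65.4% ± 4.30 in WT. Alox5 made up 2.08% ± 0.965 in Klk6+ and 8.66% ± 3.21 in WT, Alox12 0.373% ± 0.0950 in Klk6+ and 3.82% ± 0.550 in WT and Alox15 0.171% ± 0.221 in Klk6+ and 0.919% ± 0.904 in WT. The summed level was 193 ± 40.5 FPKM in Klk6+ and 107 ± 23.4 FPKM in WT. The deposited FPKM of a library add up to 610304 to 655518 in Klk6+ and 490691 to 519399 in WT. CPM per FPKM of the same gene was only slightly lower in Klk6+. It was 3.48 in Klk6+ and 3.63 in WT for Alox8, and 2.39 in Klk6+ and 2.49 in WT for Alox12e. Such a difference in scaling touches sums but not shares within a library.

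**Figure D3:**
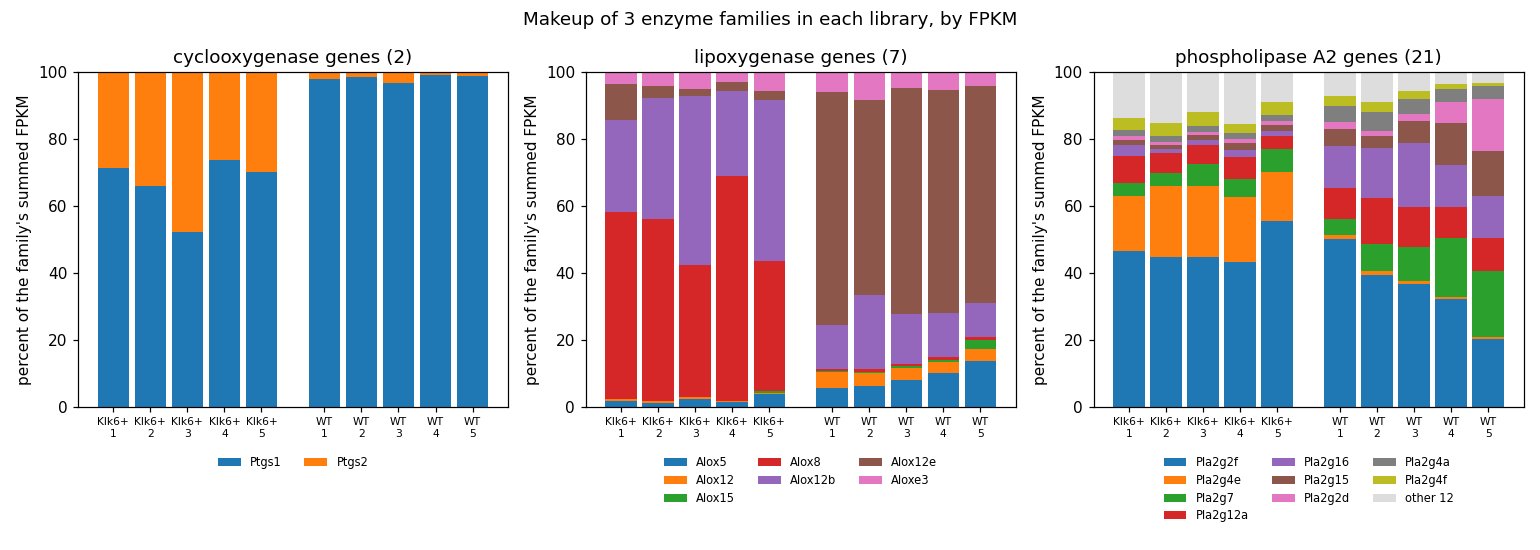
Share of each gene (y axis, percent) in the summed FPKM of the 2 cyclooxygenase, 7 lipoxygenase and 21 phospholipase A2 genes in each library, Klk6+ libraries left of WT libraries. The phospholipase A2 sum includes Pla2g4b, whose FPKM level is uncertain. Alox8 and Alox12b make up most of the lipoxygenase FPKM in Klk6+ and Alox12e most of it in WT (a mean of 65.4%), and Ptgs2 averages 33.3% of the cyclooxygenase FPKM in Klk6+ and 1.85% in WT.

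Among 19 other phospholipase A2 genes 13 were tested, 7 rose and 3 fell, with a median of 0.68. Of all genes tested 37.7% rose and 35.1% fell, with a median of 0.04. Pla2g4e, of the cytosolic family, stood at 382 ± 75.5 CPM in Klk6+ and 11.0 ± 1.96 CPM in WT and rose by 5.14 ± 0.17 (adjusted p = 2.89e-08). Pla2g4d, a cytosolic enzyme known from psoriatic keratinocytes in humans, had 3689 counts over the Klk6+ libraries and 11 over the WT libraries (log2 fold change 8.51 ± 0.60, adjusted p = 1.32e-06). Pla2g4b had 186 counts over the Klk6+ libraries and 6 over the WT libraries (log2 fold change 5.04 ± 0.54, adjusted p = 1.67e-05). It shares 66.5% of its exon sequence with the overlapping gene Gm28042 on the same strand, and its deposited FPKM, 21.8 in Klk6+ and 0.345 in WT, are far above what these counts give, so its level is uncertain. The cytosolic members Pla2g4b, Pla2g4d, Pla2g4e and Pla2g4f, of which the last rose by 1.74 ± 0.28 (adjusted p = 0.000256) and was named after its value was seen, lie together on chromosome 2 between 120033417 and 120314165, away from Pla2g4a on chromosome 1, which fell. Pla2g16, known from adipocytes, fell by 2.16 ± 0.18 (adjusted p = 3.28e-06), beside adipocyte markers at 176 to 292 CPM in Klk6+ and 578 to 822 CPM in WT. Pla2g15, a lysosomal enzyme, and Pla2g5, a secreted one, fell by 1.40 ± 0.22 and 2.89 ± 0.52 (adjusted p = 0.000199 and 0.000560). Of the summed FPKM of all 21 phospholipase A2 genes, Pla2g2f made up 46.9% ± 4.89 in Klk6+ and 35.6% ± 11.0 in WT, Pla2g4e 18.7% ± 2.84 in Klk6+ and 0.960% ± 0.212 in WT and Pla2g4a 1.69% ± 0.0864 in Klk6+ and 4.52% ± 0.766 in WT (SD, n = 5 each). These sums include the uncertain FPKM of Pla2g4b, a mean of 5.24% in Klk6+ and 0.154% in WT.

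**Figure D4:**
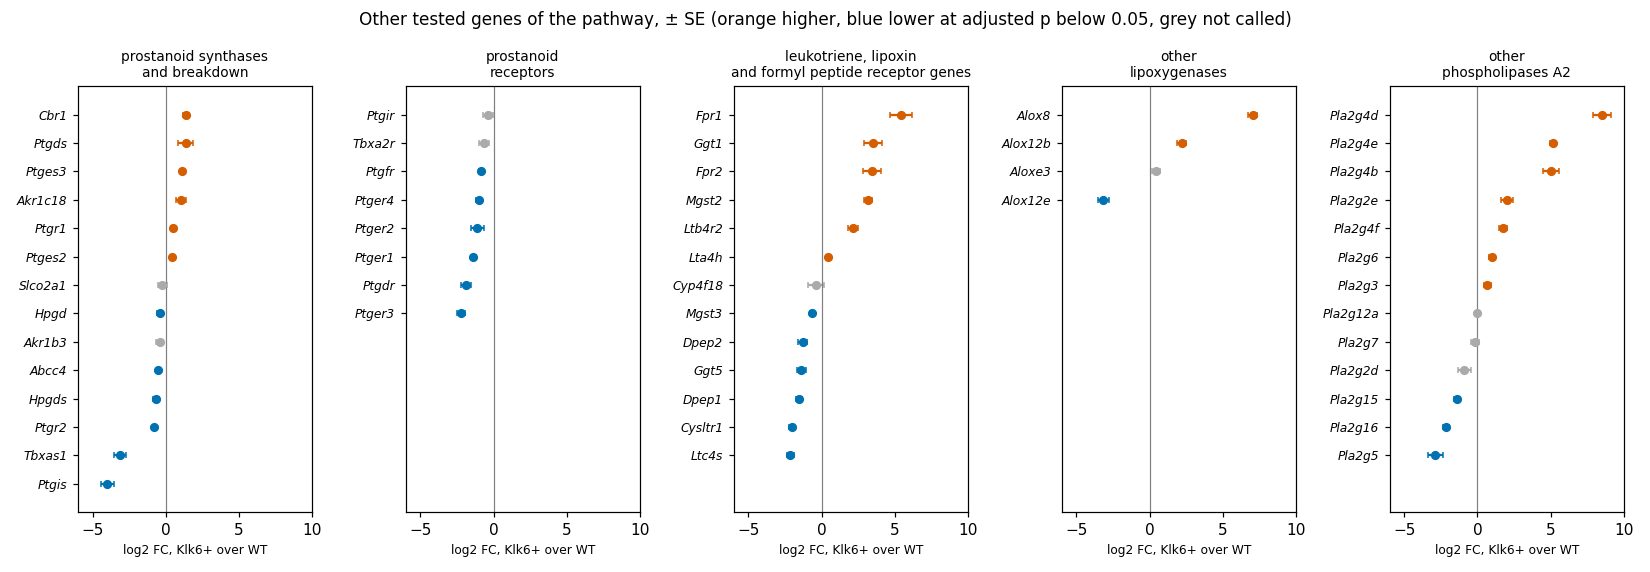
Log2 fold change (x axis, Klk6+ over WT, ± SE) of every tested gene of the 5 pathway lists, sorted within each list; orange and blue mark genes called higher and lower, grey those not called. The 8 prostanoid receptor genes all have negative values, from -2.22 for Ptger3 to -0.39 for Ptgir, and Alox8 and Pla2g4d lie at 7.04 and 8.51.

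Set in order of level per length, the 10 genes ran differently in each genotype. In Klk6+ Pla2g2f (197 ± 52.5 FPKM) led, followed by Ptges, Alox5ap (48.7 ± 26.5 FPKM), Ltb4r1 (21.2 ± 4.95 FPKM), Ptgs1, Ptgs2, Pla2g4a (6.99 ± 1.09 FPKM), Alox5 (3.82 ± 1.41 FPKM), Alox12 (0.705 ± 0.210 FPKM) and Alox15 (0.306 ± 0.373 FPKM). Only Pla2g2f and Ptges, and Alox5 and Alox12, were neighbours whose ranges did not overlap. In WT the order was Alox5ap (87.7 ± 48.3 FPKM), Pla2g2f (82.3 ± 27.1 FPKM), Ptgs1, Ptges, Pla2g4a (10.4 ± 1.35 FPKM), Alox5 (8.68 ± 1.35 FPKM), Ltb4r1 (7.56 ± 2.85 FPKM), Alox12 (4.15 ± 1.50 FPKM), Alox15 (0.845 ± 0.650 FPKM) and Ptgs2. There the ranges of Pla2g2f and Ptgs1, of Ptgs1 and Ptges, and of Alox12 and Alox15 did not overlap, while the other neighbours did. Ptgs2 held the sixth place in Klk6+ and the last in WT.

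Within each sex the directions were the same for all 10 genes. In males 4 rose and 4 fell, where 64.4% of all genes tested were called (33.4% higher, 31.0% lower). In females 4 rose and 3 fell, where 59.6% were called (31.2% higher, 28.4% lower). Ptgs2 rose by 3.64 ± 0.43 in males and 4.38 ± 0.57 in females (adjusted p = 0.000108 and 0.000221), and Ptges by 1.75 ± 0.23 in males and 2.47 ± 0.29 in females (adjusted p = 0.000192 and 0.000138). Pla2g4a was called in males (log2 fold change -0.71 ± 0.16, adjusted p = 0.00340) but not in females (-0.38 ± 0.19, adjusted p = 0.114). Alox15 and Alox5ap were called in neither sex. None of these differences between the sexes passed the interaction test of edgeR, by which 0 of the 10 genes and 0% of all genes tested were called. At an unadjusted p below 0.05 edgeR gave 1 of the 10, Ltb4r1, and 1410 of all genes. At that same unadjusted threshold DESeq2 gave 0 of the 10 and 1617 of all genes, and limma-voom 0 of the 10 and 1336. After adjustment DESeq2 called 0 of the 10 and 263 of all genes, and limma-voom called 0 of both. For Ltb4r1 the rise was 1.83 ± 0.20 in males and 1.12 ± 0.24 in females, a female minus male difference of -0.71 ± 0.31 (unadjusted p = 0.0465 and adjusted p = 0.514 by edgeR). These differences rest on 2 females a genotype.

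**Figure D5:**
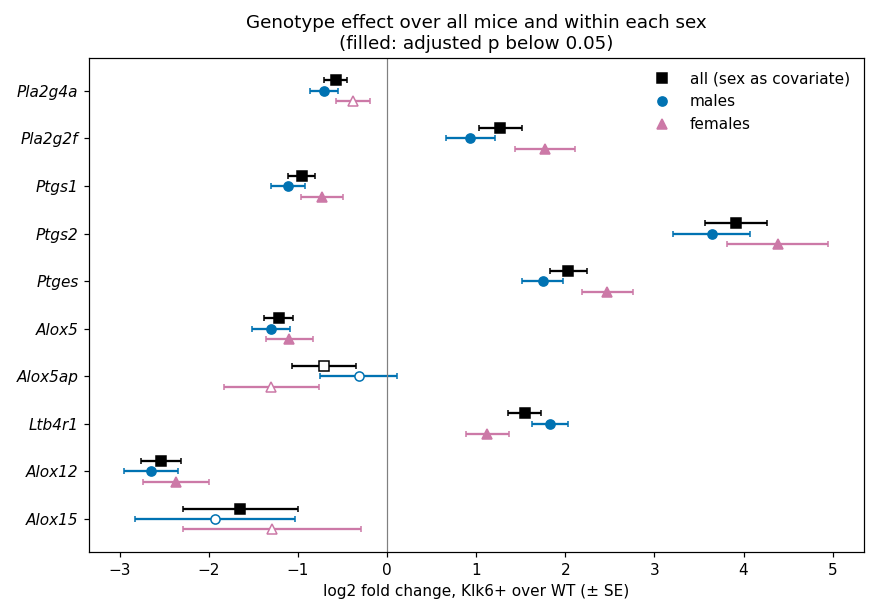
Log2 fold change (x axis, Klk6+ over WT, ± SE) of each gene over all mice (squares), in males (circles) and in females (triangles); filled symbols passed adjusted p below 0.05. All 30 estimates lie on the side of 0 of their gene, and the SE is largest for Alox15 (0.64 over all mice).

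The genes most like each member other than Alox5ap were those with the smallest root-mean-square difference between log2 CPM profiles over the 10 libraries, each centred on its own mean (0.5 CPM added; genes of at least 1 CPM). For Ptgs2 these were Il1a and Csta1, at 0.359 and 0.423 log2 units, where the median gene was 1.91 away. For Ptges they were Hook1 and Asns (0.156 and 0.177), and for Pla2g2f they were Ttpal and Aadacl2 (0.172 and 0.193). Alox5 lay closest to Ankrd44 and Il6st, Ltb4r1 to Stom and Dna2, Pla2g4a to Cdc42bpa and Wwc2, Ptgs1 to Fam65c and Pkhd1l1, and Alox12 to D7Ertd443e and Phf24. Alox15 was nearest to Tubb4a and Apod (0.452 and 0.488). All 10 libraries of both genotypes entered this measure.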

How the data were processed

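RNA from snap-frozen skin was polyA-selected, made into unstranded TruSeq libraries and read as 50-cycle single ends, per the labels' protocols. The authors deposited, per mouse, whole-number read counts and, as a second column, FPKM (fragments divided by transcript length and library size) for each of 20611 gene symbols. Per the submitters' processing notes, the tools used included HTSeq, Cufflinks 2.2.1, TopHat2 and SAMtools, with GRCm38 and mm10 as builds. Which tool made which value, the annotation and the scaling total of FPKM were not stated there. No label names a batch. The likeness of Alox5ap and 1 exon overlap are not reported here. Each library is a different mouse; no pair of a group was a repeat (lowest chi-square per degree of freedom 40.7).

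Counts were fitted in edgeR 4.0.16 (R 4.3.3): filterByExpr by genotype (minimum count 10), trimmed mean of M values, quasi-likelihood F test on genotype with sex as a covariate over all 14861 genes, Benjamini-Hochberg adjustment, called below 0.05. Effects within each sex and the interaction came from a model of 4 genotype-by-sex means. SE are those of the model. FPKM ratios (0.1 added) were compared by two-sided exact permutation over 252 assignments. DESeq2 1.42.0, limma 3.58.1 (voom, and log2 of FPKM), other scalings and filters, and leaving out each library were alternatives. The tests were checked on simulated counts in which only a small share of genes changed. That check does not cover data in which 72.8% of genes tested differ. Positions are from GENCODE M21 on GRCm38; promoters from RefSeq on GRCm38.p6. The 10 genes and all lists were chosen with earlier results of these data known. All 10 genes were described; from each pathway list up to 3 called genes per direction by smallest p, and the most abundant, were named, and others are marked as named after their values were seen.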

Additional observations from a re-analysis of the deposited data

Results flagged for a closer look

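A single library lay far from the other 4 of its group, by the gap to its nearest neighbour as a share of the group's range (above 0.710), in 8 of the 78 groups examined; chance flags about 1 in 20 such groups. Klk6+ 5 did so for Alox5 (18.5 CPM, the other Klk6+ libraries up to 11.4), Alox15 (2.38 CPM), Ptger1 (8.23 CPM) and Ltc4s (3.20 CPM), and in each it stood on the side of the WT libraries. Klk6+ 5 also had the highest macrophage marker sum of its group (955 CPM, the others 244 to 539 CPM), whose part in these values was not tested. WT 5 stood apart for Alox15 (5.08 CPM). The Ptgs2 to Ptgs1 FPKM ratio of Klk6+ 3 was 0.918, the highest of all libraries. WT 4 stood apart for Ptges2 (21.7 CPM) and WT 3 for Pla2g16 (165 CPM).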

How the results depend on the processing

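The calls of Ptgs1, Ptgs2, Ptges, Alox5, Alox12, Ltb4r1, Pla2g4a and Pla2g2f kept their direction and stayed below adjusted p of 0.05 in all 20 alternatives fitted for genotype, 1 of them (Klk6+ 3 and 5 both left out) chosen after seeing the data. With 1 FPKM added, which compresses low values, Ptgs2 rose by 2.51 and Alox12 fell by 1.56. Alox15 lost its call in 7 of the 20, and Alox5ap gained one in 5 (limma-voom, both filtered FPKM fits, without Klk6+ 3, and without Klk6+ 3 and 5). With both of these left out 4 rose and 6 fell. Over the members, Klk6 and the genes named by rule, 7 calls were lost and 5 gained among 720 values. Other genes named above, such as Hpgd, Ptger4, Ptgdr and Ptger2, were not in this count. With 1 library left out, prostanoid receptor genes called lower ranged from 5 to 7. Those called lower among other prostanoid synthases and breakdown steps ranged from 5 to 6. In females, members called lower ranged from 2 to 5 with 1 library left out (2 without WT 4, 5 without Klk6+ 5). For the interaction over all genes DESeq2 called 82 higher and 181 lower, and with 1 library left out edgeR called 0 to 2 in each direction; the cause was not tested. The female minus male difference changed sign without Klk6+ 5 for Alox5 (range -0.31 to 0.58), Alox12 (-0.0760 to 0.57) and Alox15 (-1.22 to 1.74), none called. The Alox12 to Alox15 ratio passed with 1 FPKM added to each (-1.08 in log2, adjusted exact permutation p = 0.0317). Alox15 averaged 0.306 FPKM in Klk6+ and 0.845 FPKM in WT, both below the 1 FPKM added, so the constant weighs heavily in that ratio. The fit that leaves out 1 female assumes that the lone one varies like the other groups. No paired analysis was possible because the libraries come from different mice, and the labels give each mouse its own number, shared with no mouse of the other genotype. Depth limits Alox15 most, with 2 counts in Klk6+ 3.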
